A study of Mus musculus with 6 samples.

Results

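The organic ion, bile acid and ABC transporter genes were examined in livers of fasted mice with and without CREBH, a transcription factor of hepatocytes encoded by Creb3l3. Members were the protein-coding genes of the families Slc10a, Slc22a, Slco, Slc47a, Abcb, Abcc and Abcg, found by their GENCODE M21 symbols. They were 74 of the 55536 genes in the files. One group was WT and the other CREBH-KO, each with 3 liver samples, and every mouse had fasted for 14 h. The labels used here give no strain, age or sex, do not say which part of Creb3l3 the knockout lacks or whether it is missing from the liver alone, and leave unsaid whether the samples are from different mice. P-values below therefore speak only of the variation among these 6 samples, some of which may be technical.

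Hepatocytes take bile acids, drugs, bilirubin and hormones from the blood across the sinusoidal membrane. They pass them, changed or unchanged, into the bile across the canalicular membrane or back to the blood across the basolateral membrane. Uptake is mostly the work of solute carriers, that is the sodium-dependent bile acid carriers (Slc10a), the organic anion transporting polypeptides (Slco) and the organic ion transporters (Slc22a). Export is mostly the work of ABC transporters, pumps driven by ATP. The genes were sorted below by the membrane on which textbooks place their proteins. RNA was measured here, and neither protein nor transport was.

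Reads counted in genes numbered 28106243 to 39288819 per library, and the members held 0.535% to 0.578% of them in WT and 0.461% to 0.481% in CREBH-KO. Levels are CPM (counts scaled to a common library total) computed with the effective library size. Creb3l3, the targeted gene, had 486 ± 16.6 CPM in WT and 49.6 ± 6.79 CPM in CREBH-KO (SD, n = 3 each). The labels note a lost file of first reads for CREBH-KO 2 and CREBH-KO 3, so calls lost with CREBH-KO 1 alone against WT are named. That run has 1 library in a group and little power, so a call can be lost with little change in the effect. The part of the lost files in such losses was not tested. All 6 hepatocyte markers matched were abundant, with a summed level of 61121 to 74474 CPM in WT and 70229 to 76376 CPM in CREBH-KO, of which Alb made up 71.1% to 76.0%. Of these markers Ambp was called higher (0.33, edgeR adjusted p = 0.0465) and Apob lower (-0.36, adjusted p = 0.0419), and neither passed when any 1 library was left out (0.0778 to 0.177 and 0.0512 to 0.136) or with CREBH-KO 1 alone (0.379 and 0.264). Apob also did not pass with library size (0.0893) or upper-quartile scaling (0.0607). Of 5 kidney tubule genes, Kap, Slc12a1, Slc34a1 and Aqp2 had 0 counts in every library, and Umod had 1 count, in WT 1. The exocrine pancreas genes together stayed at or below 0.517 CPM.

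Of the 74 members, 53 had enough reads to be tested. Among these, 9 were lower and 2 higher in CREBH-KO at a Benjamini-Hochberg adjusted p under 0.05 in edgeR's quasi-likelihood test. Over all 15589 genes tested, 10.4% were called, 6.46% lower and 3.91% higher. Of all calls 37.7% were higher, or 52.8% with library size scaling in place of trimmed means (TMM), under which 2 of the 10 called members were higher. Lower genes were 5 of the 9 for sinusoidal uptake, 1 of the 9 for canalicular export, 1 of the 4 for basolateral export and 1 of the 26 others. Both higher genes were among the others. The median log2 fold change (CREBH-KO minus WT) was -0.57 for uptake, -0.13 for canalicular export and -0.33 for basolateral export, against 0.025 for all genes tested. Libraries of the 2 groups were fully apart for 21 of 53 members, 16 with CREBH-KO below and 5 with CREBH-KO above, against 30.6% of all genes tested (15.7% below and 15% above). Whether the roles differ from each other was not tested. The number of called members was 14 without WT 1, 5 without WT 2, 5 without CREBH-KO 3 and 2 with CREBH-KO 1 alone, while the share of all genes called was 11.2%, 4.06%, 4.83% and 1.34%. In bulk tissue, fewer cells of a type and less RNA per cell cannot be told apart.

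**Figure D1:**
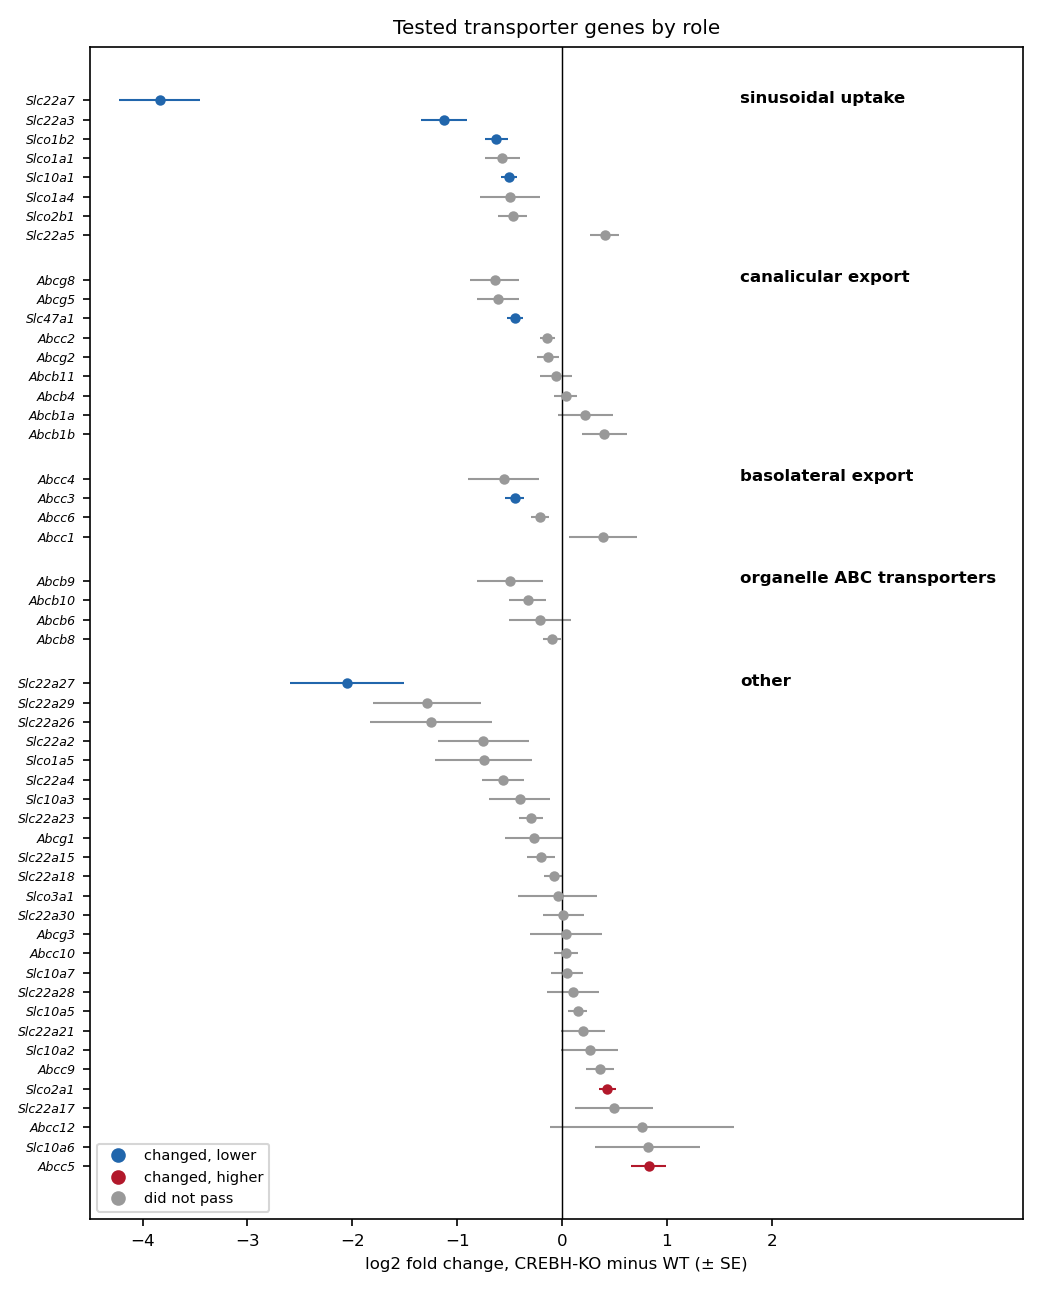
Log2 fold change (CREBH-KO minus WT, x axis) of 51 tested transporter genes, grouped by role, with bars for the standard error from edgeR's quasi-likelihood test. Blue points are 7 genes called lower, red points the 2 called higher and grey points did not pass; all uptake genes shown except Slc22a5 lie left of 0.

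Among the carriers of bile acids and organic anions, the most abundant fell. Slc10a1 (ENSMUSG00000021135, chromosome 12 from 80953183 to 80968705, GRCm38) encodes NTCP, the main sodium-dependent bile acid carrier of the sinusoidal membrane. Its levels were 460.5, 489 and 494 CPM in the WT livers and 341, 351 and 326 CPM in the CREBH-KO livers. The groups did not overlap, and the libraries within each lay close together. The log2 fold change was -0.50 ± 0.08 (SE, edgeR adjusted p = 0.00444), a level 1.42-fold higher in WT.

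Slco1b2 (ENSMUSG00000030236, chromosome 6 from 141629518 to 141686646) encodes OATP1B2, a sodium-independent carrier of bile acids, bilirubin and many drugs. It had 993, 918 and 738 CPM in WT and 585, 564 and 567 CPM in CREBH-KO. WT 3 was the lowest WT library and still lay above all 3 CREBH-KO libraries. The gene fell by 0.63 ± 0.11 on the log2 scale (edgeR adjusted p = 0.00925). With CREBH-KO 1 alone against WT, the calls of Slc10a1 and Slco1b2 were lost (adjusted p = 0.122 and 0.188) at log2 fold changes of -0.52 and -0.62.

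The other carriers of this kind did not pass in edgeR on all 6 libraries. Slco1a1 encodes OATP1A1, an anion carrier of rodent liver known for higher levels in males. It had 192, 157 and 118 CPM in WT and 92.7, 101 and 120.3 CPM in CREBH-KO, so that WT 3 fell within the CREBH-KO range (log2 fold change -0.57 ± 0.17, edgeR adjusted p = 0.0624). It passed without WT 3 (-0.74, adjusted p = 0.0134), in DESeq2 (adjusted p = 0.00656), and in edgeR when scarce genes were kept in (no filter, adjusted p = 6.96e-05). Slco2b1, which encodes OATP2B1, a carrier of steroid sulfates, had 93.2, 126 and 133 CPM in WT and 95.1, 79.9 and 79.7 CPM in CREBH-KO. Here WT 1 was the library that overlapped the other group (-0.47 ± 0.14, edgeR adjusted p = 0.0613), and without it the gene passed (-0.62, adjusted p = 0.00583). DESeq2 called it too (-0.48, adjusted p = 0.0127), as did edgeR with no filter (7.19e-04).

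Slco1a4, which encodes OATP1A4, a carrier of bile acids and cardiac glycosides, split the CREBH-KO group. Its levels were 173, 219 and 220.4 CPM in WT but 231, 96.1 and 108 CPM in CREBH-KO. CREBH-KO 1 was thus the highest of all 6 libraries, and CREBH-KO 2 and 3, the libraries with a lost read file, were the lowest. The log2 fold change was -0.49 ± 0.29 (SE, edgeR adjusted p = 0.325), -1.003 without CREBH-KO 1 (adjusted p = 0.00255) and 0.15 with CREBH-KO 1 alone (adjusted p = 0.752). It passed with no filter (-0.52, adjusted p = 0.00993). Its ratio of CREBH-KO 1 to the mean of the other CREBH-KO libraries was 2.26. For the other tested members with at least 10 CPM in a group this ratio ran from 0.651 (Abcb10) to 1.21 (Abcc9). Members below that level were left out of this range. Among them Slc22a26 and Slc22a27 were also highest in CREBH-KO 1 of the CREBH-KO libraries, while Slc22a28 was lowest there. Some genes outside the transporter families, mostly below that level, had the same split of the CREBH-KO group as Slco1a4. The cholangiocyte marker Epcam had 11.1, 3.75 and 3.76 CPM in CREBH-KO 1, 2 and 3, and Krt19, another, had 3.83, 1.18 and 1.13 CPM. The sterol carrier gene Npc1l1 had 6.21, 0.947 and 0.796 CPM, and Slc51a, of the basolateral bile acid exporter, had 1.05, 0.304 and 0.306 CPM. The part of the lost files and of bile duct cells in this split was not tested.

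**Figure D2:**
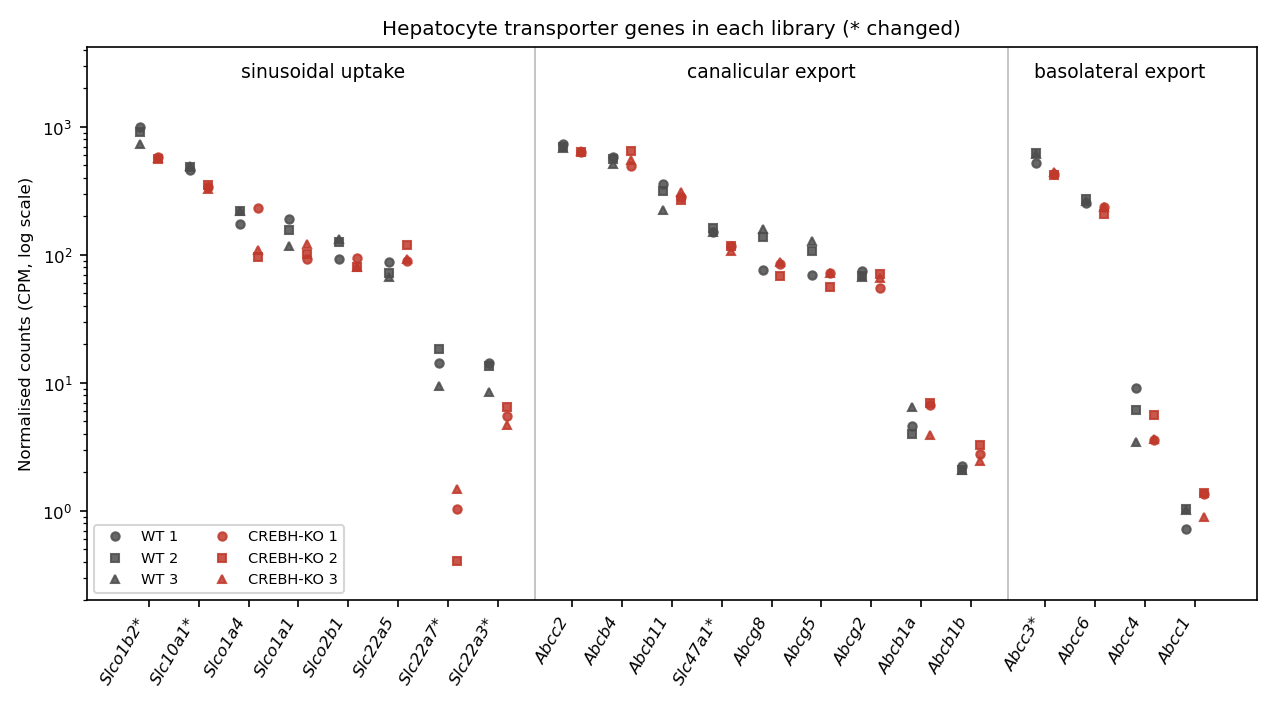
Normalised counts (CPM, log scale) of 21 genes with a hepatocyte membrane role in each library; grey symbols are WT 1 to 3, red symbols CREBH-KO 1 to 3, and an asterisk marks genes that changed. Slc22a7 shows the widest gap between the groups, while Abcb4 and Abcb11 overlap.

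The steepest falls were among the organic ion transporters of the Slc22a family. Slc22a7 (ENSMUSG00000067144, chromosome 17 from 46432183 to 46438457) encodes OAT2, a carrier of organic anions and nucleotides. It had 14.4, 18.2 and 9.40 CPM in WT and 1.02, 0.406 and 1.47 CPM in CREBH-KO, from 1426 reads in WT and 95 in CREBH-KO. Every CREBH-KO library lay far below the lowest WT library. The log2 fold change was -3.84 ± 0.39 (SE, edgeR adjusted p = 6.43e-04), a 14.3-fold difference. Slc22a7 passed in all 14 alternative analyses, including CREBH-KO 1 alone against WT.

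Slc22a3 (ENSMUSG00000023828, chromosome 17 from 12418960 to 12507704) encodes OCT3, a carrier of monoamines. It had 14.4, 13.6 and 8.45 CPM in WT and 5.50, 6.49 and 4.71 CPM in CREBH-KO, without overlap (log2 fold change -1.13 ± 0.22, edgeR adjusted p = 0.0127). Of its exonic bases, 9.31% lie antisense to Plg, an abundant liver gene, and the strand setting of the counts is not given in the sources used here. Slc22a3 did not pass without WT 2 (adjusted p = 0.0584), without CREBH-KO 3 (0.0541) or with CREBH-KO 1 alone (0.160).

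Slc22a5 was the uptake gene that pointed the other way. It encodes OCTN2, the carrier of carnitine, which hepatocytes need for fatty acid oxidation. Its levels were 87.6, 72.3 and 66.8 CPM in WT and 89.2, 119.7 and 91.9 CPM in CREBH-KO. The groups touched without overlapping, and the gene did not pass (0.41 ± 0.14, edgeR adjusted p = 0.0969). It passed without WT 1 (0.52, adjusted p = 0.0418), in DESeq2 (0.0452) and in edgeR with no filter (0.0113). Slc22a5 apart, no uptake gene was called higher in any of these analyses. Of all genes tested, edgeR on all 6 libraries called 3.91% higher. On all 6 libraries, at an unadjusted p under 0.05, edgeR gave 1 uptake gene higher and 7 lower. The share of all genes tested under this cut is not given here. This and later counts at an unadjusted p are therefore a description only.

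Promoter windows, from 250 bases before to 50 after a start site, were taken from RefSeq's table for GRCm38.p6. Of the 11 changed members, 6 matched: Slc10a1, Slco1b2, Slc22a3, Slc22a27, Abcc5 and Slco2a1. Abcc3, Slc22a7 and Slc47a1 had no entry. The 250 bases before the start are shown for the 3 uptake genes that fell together and had an entry, at chr12:80968706-80968955 (minus strand), chr6:141629268-141629517 (plus strand) and chr17:12507705-12507954 (minus strand). Capitals mark exact matches, on either strand, to the motifs searched: TGACGTCA (cAMP response element), TGACG (the core that the full element contains), GTTAAT (one arm of the HNF1 site), TTATGTAA (site of PAR bZIP factors), AGGTCA (the core that nuclear receptors bind) and CACGTG (E-box).
Slc10a1: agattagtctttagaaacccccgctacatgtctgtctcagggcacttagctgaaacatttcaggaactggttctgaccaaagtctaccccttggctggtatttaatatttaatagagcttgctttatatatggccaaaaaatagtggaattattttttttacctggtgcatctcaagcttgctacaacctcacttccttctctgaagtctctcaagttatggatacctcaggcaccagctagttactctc
Slco1b2: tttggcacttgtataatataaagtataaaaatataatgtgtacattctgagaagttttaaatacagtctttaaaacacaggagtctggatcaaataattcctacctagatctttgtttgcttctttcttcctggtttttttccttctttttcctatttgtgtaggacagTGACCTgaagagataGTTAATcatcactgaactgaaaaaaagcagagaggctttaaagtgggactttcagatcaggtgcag
Slc22a3: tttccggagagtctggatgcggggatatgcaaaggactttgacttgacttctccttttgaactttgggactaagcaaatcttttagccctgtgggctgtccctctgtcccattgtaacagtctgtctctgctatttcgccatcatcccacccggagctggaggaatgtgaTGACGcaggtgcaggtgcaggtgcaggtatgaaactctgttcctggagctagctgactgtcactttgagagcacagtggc

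These 250 bases were poor in G and C at Slco1b2 (33.6%) and Slc10a1 (40.8%) and more balanced at Slc22a3 (51.2%). At Slco1b2, GTTAAT began 66 bases before the start and the reverse complement of AGGTCA 81 bases before it. At Slc22a3, TGACG began 80 bases before the start. The 6 changed genes with an entry had 7 whole windows. AGGTCA was found in 3 of the 7 (Slc10a1, where it lies outside the bases printed, Slc22a27 and Slco1b2) and in 16.3% of all 32851 windows of the table. Of the 69 windows of all members 13 held it (18.8%), those of the unchanged Abcb11 and Abcc2 among them. GTTAAT was in 1 of the 7 against 7.10% of all windows and 7.25% of member windows. TGACG was in 1 of the 7 against 20.8% and 14.5%. The full element TGACGTCA, which 1.79% of all windows hold, was in none of the 7, nor were TTATGTAA (0.938% of all) or CACGTG (7.15% of all). A match describes letters only and is not shown to be a site.

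Of the canalicular exporters, the single call was for a cation carrier. Slc47a1 (ENSMUSG00000010122, chromosome 11 from 61343401 to 61378345) encodes MATE1, which passes organic cations into the bile in exchange for protons. It had 151, 163 and 150.4 CPM in WT and 117, 117 and 107 CPM in CREBH-KO. The groups were well apart, and the gene fell by 0.45 ± 0.08 on the log2 scale (edgeR adjusted p = 0.00773). The call was lost with CREBH-KO 1 alone against WT (-0.43, adjusted p = 0.185).

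The pumps that form bile did not pass. Abcb11 encodes BSEP, the bile salt export pump, and had 354, 315 and 225 CPM in WT and 281, 269 and 310.5 CPM in CREBH-KO. The CREBH-KO values lay inside the WT range (log2 fold change -0.06 ± 0.15, edgeR adjusted p = 0.854), and the sign turned with library size scaling (0.016) and without WT 1 (0.073). Abcb4 encodes the flippase that brings phosphatidylcholine into bile. It had 585, 555 and 514 CPM in WT and 497, 651 and 549 CPM in CREBH-KO, again without a clear order (0.04 ± 0.11, edgeR adjusted p = 0.874). Its sign turned without WT 3 (-0.015), without CREBH-KO 2 (-0.077) and with CREBH-KO 1 alone (-0.17).

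Abcc2, which encodes MRP2, the exporter of conjugated bilirubin and glutathione conjugates, was the most abundant canalicular gene. It had 731, 693 and 688 CPM in WT and 638, 636 and 644 CPM in CREBH-KO. The groups did not overlap, as was so for 30.6% of all genes tested, but the gap was small (-0.14 ± 0.08, edgeR adjusted p = 0.293). Abcg2, which encodes the drug and urate exporter BCRP, had 75.1, 67.7 and 67.0 CPM in WT and 54.5, 71.1 and 65.9 CPM in CREBH-KO (-0.13 ± 0.11, edgeR adjusted p = 0.482). The P-glycoprotein genes, whose products export drugs, were scarce and neither passed. Abcb1a had 4.58, 3.94 and 6.50 CPM in WT and 6.67, 6.93 and 3.92 CPM in CREBH-KO, with mixed groups (edgeR adjusted p = 0.649). Abcb1b had 2.25, 2.07 and 2.08 CPM in WT and 2.75, 3.28 and 2.45 CPM in CREBH-KO, all above WT (edgeR adjusted p = 0.288).

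Abcg5 and Abcg8 encode the 2 partners of the sterol exporter of the canalicular membrane and lie head to head. Abcg5 had 69.1, 107.8 and 128 CPM in WT and 71.6, 56.4 and 72.0 CPM in CREBH-KO. Abcg8 had 76.4, 138 and 160.2 CPM in WT and 84.5, 67.7 and 87.7 CPM in CREBH-KO. In both genes WT 1 lay among the CREBH-KO libraries, CREBH-KO 2 was the lowest library and WT 3 the highest. The ratio of Abcg8 to Abcg5 stayed between 1.11 and 1.28 over all 6 libraries. Neither gene passed in edgeR on all 6 libraries (-0.61 ± 0.20 and -0.64 ± 0.23, edgeR adjusted p = 0.0910 and 0.119). Without WT 1 both passed, at -0.83 and -0.91 (adjusted p = 0.00450 and 0.00268), as they did with no filter (9.54e-05 and 9.89e-05). In DESeq2 on all 6 libraries Abcg5 passed (-0.62, adjusted p = 0.0146) and Abcg8 did not (-0.65, adjusted p = 0.204).

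The stretch between their RefSeq start sites is shown because both genes followed the same order of libraries. It spans 109 bases at chr17:84683012-84683120, written on the plus strand, with Abcg5 starting to its left on the minus strand and Abcg8 to its right. It is all in lower case since none of the 6 motifs matched.
Abcg5-Abcg8: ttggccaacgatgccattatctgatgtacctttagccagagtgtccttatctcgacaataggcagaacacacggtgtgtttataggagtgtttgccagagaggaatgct

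On the basolateral side, Abcc3 (ENSMUSG00000020865, chromosome 11 from 94343295 to 94392997) was the gene called. It encodes MRP3, which returns glucuronides and bile acids to the blood. It had 524, 627 and 608 CPM in WT and 424, 416 and 447 CPM in CREBH-KO. The groups did not overlap, and the gene fell by 0.45 ± 0.09 on the log2 scale (edgeR adjusted p = 0.0157). Abcc3 did not pass when WT 2 was left out (adjusted p = 0.0777), without CREBH-KO 2 (0.0589), without CREBH-KO 3 (0.0507) and with CREBH-KO 1 alone (0.194).

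Abcc6 encodes a transporter needed for ATP release from the liver, whose loss causes pseudoxanthoma elasticum. It had 253, 273 and 261 CPM in WT and 235, 208 and 237 CPM in CREBH-KO, apart but close (-0.21 ± 0.08, edgeR adjusted p = 0.145). Abcc4, which encodes MRP4, an exporter known to rise in cholestasis, had 9.15, 6.13 and 3.41 CPM in WT and 3.57, 5.58 and 3.64 CPM in CREBH-KO (edgeR adjusted p = 0.344). Abcc1, which encodes MRP1, had 0.724, 1.03 and 1.01 CPM in WT and 1.35, 1.39 and 0.887 CPM in CREBH-KO (edgeR adjusted p = 0.496). Both scarce genes overlapped between the groups. No gene of basolateral or canalicular export was called higher in edgeR, DESeq2 or limma-voom, and none was higher at an unadjusted p under 0.05. Of all 15589 genes tested, edgeR called 609 higher (3.91%), DESeq2 814 and limma-voom 600. The lack of such calls among 9 canalicular and 4 basolateral genes therefore says little about exporters.

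Summed over its 9 genes, sinusoidal uptake had 2395, 2341 and 2102 CPM in WT and 1572, 1468 and 1441 CPM in CREBH-KO. Canalicular export had 2049, 2047 and 1941 CPM in WT and 1753, 1879 and 1842 CPM in CREBH-KO, and basolateral export 787, 907 and 873 CPM in WT and 664, 632 and 688 CPM in CREBH-KO. For all 3 sums the CREBH-KO libraries lay below the WT range. With library size scaling, an alternative chosen after seeing the data, the canalicular sums overlapped (1884 to 2017 CPM in WT and 1754 to 1977 CPM in CREBH-KO). The other sums still did not, at 2041 to 2358 against 1474 to 1573 CPM for uptake and 774 to 877 against 664 to 703 CPM for basolateral export. The sum for uptake divided by that for canalicular export was 1.08 to 1.17 in WT and 0.782 to 0.897 in CREBH-KO. Slco1b2 alone made up 35.1% to 41.5% of the uptake sum, and without it the ratio was 0.684 to 0.703 in WT and 0.474 to 0.563 in CREBH-KO. Since the genes were chosen with results of these data known, these ranges are a description and carry no test.

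**Figure D3:**
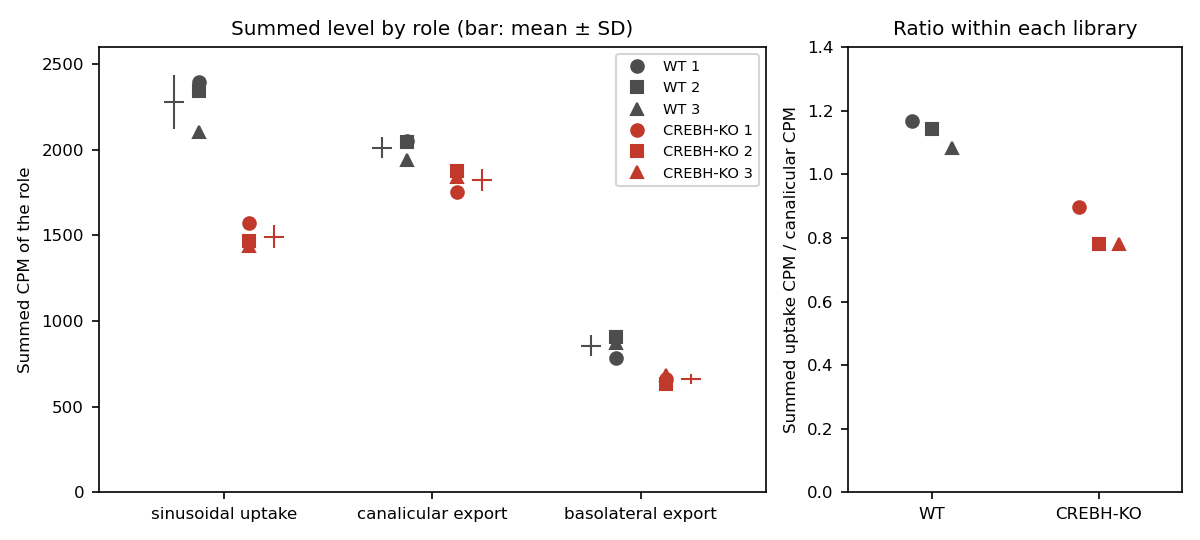
Left, summed CPM of the genes of each role in each library (grey WT, red CREBH-KO, with mean ± SD beside the points, n = 3); right, the ratio of the uptake sum to the canalicular sum in each library. The 3 WT ratios lie between 1.08 and 1.17, above the 3 CREBH-KO ratios.

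ABC transporters of organelles move metals, porphyrins or peptides across inner membranes of the cell. The mitochondrial Abcb8 and Abcb10, Abcb6 and the lysosomal peptide transporter Abcb9 did not pass, at log2 fold changes of -0.50 to -0.09. Of the exonic bases of Abcb6, 55.2% overlap another gene of the same strand, so its counts are uncertain.

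Among the 26 other tested members, 2 rose. Abcc5 encodes MRP5, an exporter of cyclic nucleotides, and had 4.09, 4.60 and 5.20 CPM in WT and 8.61, 7.07 and 8.94 CPM in CREBH-KO. All CREBH-KO libraries were higher (log2 fold change 0.83 ± 0.17, edgeR adjusted p = 0.0153). Slco2a1 encodes the prostaglandin transporter, known from endothelium, and had 81.8, 80.5 and 80.4 CPM in WT and 100.2, 110.7 and 116 CPM in CREBH-KO (0.43 ± 0.08, edgeR adjusted p = 0.0108). Both calls were lost without WT 2 (adjusted p = 0.0633 and 0.0567), without CREBH-KO 3 (0.0642 and 0.0512) and with CREBH-KO 1 alone (0.149 and 0.337). None of 7 sinusoidal endothelial markers was called in edgeR, DESeq2 or limma-voom, which called 10.4%, 13.6% and 10.3% of all genes tested. At an unadjusted p under 0.05, edgeR gave 1 higher (Lyve1, 1.24) and 2 lower (Clec4g, -0.34, and Stab2, -0.25). The summed level of the 7 markers, which moved in both directions, was 117 to 158 CPM in WT and 135 to 139.7 CPM in CREBH-KO. The part of endothelial cells in the values of Slco2a1 was not tested.

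Slc22a27 was the other member that fell. It had 1.03, 0.501 and 0.780 CPM in WT and 0.293, 0.0676 and 0.184 CPM in CREBH-KO, from 80 and 18 reads (-2.05 ± 0.54, edgeR adjusted p = 0.0438). It did not pass in limma-voom (adjusted p = 0.0515), with CREBH-KO 1 alone (0.459) and without any 1 library except CREBH-KO 1 (0.0727 to 0.132). It lies in a 955 kb cluster of 8 Slc22a genes on chromosome 19, from 7673061 to 8628299. Its neighbours Slc22a26 and Slc22a29 had log2 fold changes of -1.25 ± 0.58 and -1.29 ± 0.52 and did not pass (edgeR adjusted p = 0.220 and 0.154), while Slc22a28 (0.10) and Slc22a30 (0.01) were near 0. These genes are similar in sequence, and reads that matched several places were set aside, so their counts are uncertain, as are those of the Slco1a genes and of Abcb1a and Abcb1b.

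The remaining 23 tested members did not pass, with log2 fold changes from -1.29 to 0.82 and adjusted p of at least 0.112. The 5 most expressed per exonic length among the 26 others were Slc22a18, Slc22a30, Slc22a23, Slc10a5 and Slco2a1, with 73.5, 27.3, 13.2, 6.23 and 5.97 CPM per kb in WT. Slc10a2, which encodes the apical bile acid carrier of ileum and bile duct cells, had 3.52, 5.38 and 6.27 CPM in WT and 7.96, 4.43 and 5.75 CPM in CREBH-KO (edgeR adjusted p = 0.585). Of 6 tested cholangiocyte markers, Sox9 was called higher (0.96, adjusted p = 0.0312) and none lower, with 1 lower at an unadjusted p under 0.05; DESeq2 and limma-voom gave the same counts. Sox9 did not pass without WT 1 (adjusted p = 0.0648), WT 2 (0.113), CREBH-KO 1 (0.0781) or CREBH-KO 2 (0.0743), or with CREBH-KO 1 alone (0.0820). That list summed to 50.3 to 95.4 CPM in WT and 59.5 to 87.0 CPM in CREBH-KO. Abcc9, a subunit of potassium channels in vascular and mural cells, had 16.8, 17.5 and 14.8 CPM in WT and 23.8, 22.1 and 17.1 CPM in CREBH-KO (0.36 ± 0.14, edgeR adjusted p = 0.131). The 7 stellate cell markers summed to 136 to 165 CPM in WT and 186 to 214 CPM in CREBH-KO, and of these Dcn was called higher (0.56, edgeR adjusted p = 0.00552), but not with CREBH-KO 1 alone (0.0805). Dcn made up 54.4% to 63.6% of that sum, and without it the sums overlapped (55.6 to 75.4 CPM in WT and 72.2 to 83.5 CPM in CREBH-KO). Of the 7 stellate cell markers, 6 had a positive log2 fold change and 1 a negative one (median 0.56). At an unadjusted p under 0.05, edgeR gave 3 of them higher, Dcn included, and none lower. The part of these cells in the values of Slc10a2 and Abcc9 was not tested.

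The 21 members that were not tested had too few reads. Of these, 7 had 0 counts in all 6 libraries (Abcb5, Slc10a4, Slc22a16, Slc22a19, Slc22a6, Slco6c1 and Slco6d1), and the other 14 had 1 to 47 reads in all. Slc22a6 and Slc22a8, which encode the renal organic anion carriers OAT1 and OAT3, were among them with 0 and 1 reads. The upper end was Slco4a1, with 0.362, 0.501 and 0.228 CPM in WT and 0.0878, 0.0676 and 0.153 CPM in CREBH-KO.

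Per exonic length, uptake carriers held the top of the list in WT: Slc10a1 had 219 ± 8.23 and Slco1b2 179 ± 26.6 CPM per kb (SD, n = 3). Abcc3 (103 ± 9.64) and Abcc2 (82.5 ± 2.75 CPM per kb) were the most abundant exporters. In CREBH-KO, Slc10a1 (154 ± 5.92) and Slco1b2 (116 ± 2.27) still led, followed by Abcc3 (75.3 ± 2.76) and Abcc2 (75.0 ± 0.452), which lay within their spread of each other. Slc22a18 had 69.5 ± 6.80 CPM per kb. Slc22a7 moved from rank 22 to rank 39 of the 74.

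**Figure D4:**
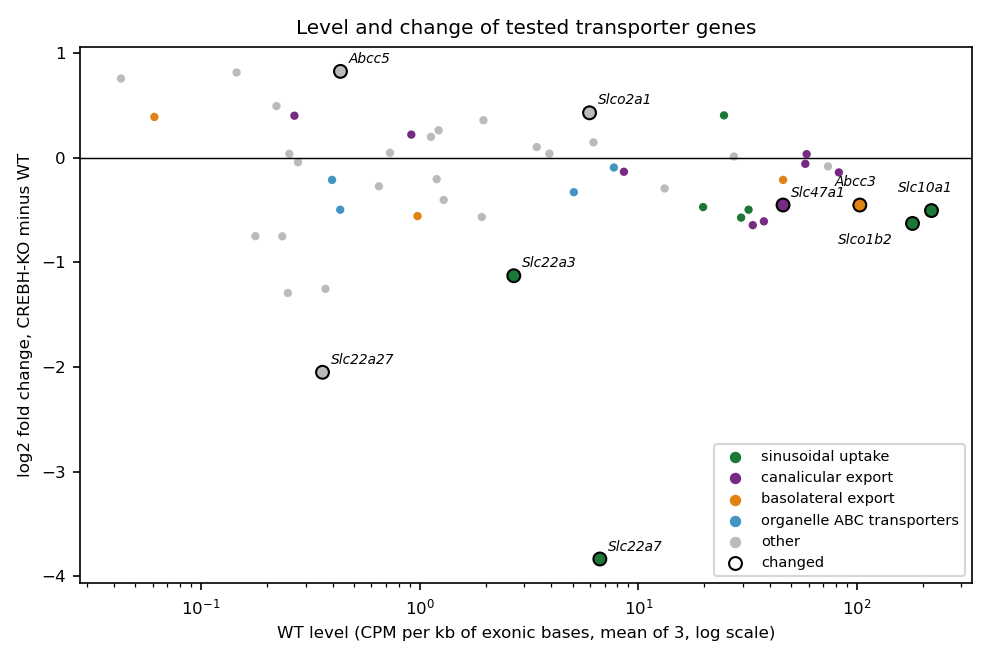
Mean WT level per kb of exonic bases (x axis, log scale) against the log2 fold change (CREBH-KO minus WT) of 51 tested members, coloured by role, with 9 changed genes ringed and named. Slc10a1 and Slco1b2, at the right edge, lie below 0.

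Of other genes of bile transport and of the anchoring of transporters in the membrane, 1 of 12 was lower and none higher, with 2 lower and none higher at an unadjusted p under 0.05. In DESeq2 and limma-voom likewise 1 was lower and none higher, while of all genes tested edgeR called 10.4%, DESeq2 13.6% and limma-voom 10.3%. The gene called was Slc9a3r1, which encodes the scaffold NHERF1 that binds several transporters, at 197 ± 45.3 CPM in WT and 110.0 ± 13.0 CPM in CREBH-KO (-0.84, edgeR adjusted p = 0.0127). It did not pass when WT 2 (adjusted p = 0.0519) or CREBH-KO 2 (0.0542) was left out, nor with CREBH-KO 1 alone (0.204). Slc51a and Slc51b, which encode the basolateral bile acid exporter, were near silent at no more than 1.37 CPM on average in either group. The canalicular flippase gene Atp8b1 (0.05) and the scaffold gene Pdzk1 (-0.12) did not pass.

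Of 12 tested genes of bile acid synthesis and conjugation, 5 were lower and none higher in edgeR, with 7 lower and none higher at an unadjusted p under 0.05. DESeq2 called 6 lower and limma-voom 5. Of all genes tested, edgeR called 10.4%, DESeq2 13.6% and limma-voom 10.3% in either direction. Cyp7b1, an enzyme of the alternative pathway, fell by 1.61 and Cyp27a1, which starts that pathway, by 0.77 on the log2 scale (edgeR adjusted p = 0.00753 and 5.70e-04). Akr1d1 (-0.84), Akr1c6 (-0.59) and Scp2 (-0.84), which act on the ring or the side chain, were also lower. Cyp7a1, the rate-limiting enzyme of the classical pathway, varied widely in WT (191 ± 122 CPM) and did not pass (143 ± 36.9 CPM in CREBH-KO, edgeR adjusted p = 0.598). The call of Cyp7b1 was lost in edgeR's robust fit (adjusted p = 0.0565), that of Akr1d1 when WT 2 (0.0519) or CREBH-KO 3 (0.0539) was left out, and that of Akr1c6 with library size scaling (0.0577) and without any 1 library except WT 3 (0.0518 to 0.125). With CREBH-KO 1 alone, Akr1d1 (0.126) and Akr1c6 (0.360) lost theirs as well.

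Of 16 genes for regulators of transporter genes, 5 were lower and none higher in edgeR and DESeq2. In limma-voom 4 were lower and none higher. At an unadjusted p under 0.05, edgeR gave 6 lower and 3 higher. Adjusted calls in either direction made up 10.4% of all genes tested in edgeR, 13.6% in DESeq2 and 10.3% in limma-voom. Ppara, a nuclear receptor of fasting, fell by 1.28, Nr1i3, which encodes the xenobiotic receptor CAR, by 0.73 and Cebpa by 0.67 on the log2 scale. Rxra, the partner receptor of FXR, CAR and PPAR-alpha, fell by 0.48 (edgeR adjusted p = 0.00849), and Ahr by 0.48 (adjusted p = 0.0464). Nr1h4, which encodes the bile acid receptor FXR, did not pass (141 ± 14.6 CPM in WT and 127 ± 4.31 CPM in CREBH-KO, edgeR adjusted p = 0.341). Its target Nr0b2, which encodes the repressor SHP, had 39.7 ± 11.6 CPM in WT and 72.0 ± 22.1 CPM in CREBH-KO and did not pass (0.86, edgeR adjusted p = 0.0664). In separate edgeR runs Nr0b2 passed without CREBH-KO 2 (1.08, adjusted p = 0.0349), with library size scaling (0.93, adjusted p = 0.0397) and with no filter (0.83, adjusted p = 4.71e-06). Rxra did not pass without WT 2 (adjusted p = 0.0513), nor Ahr in limma-voom, under both other scalings and without any 1 library except WT 3. With CREBH-KO 1 alone, Ppara kept its call (adjusted p = 0.0437), and Nr1i3, Cebpa, Rxra and Ahr lost theirs (0.0873 to 0.406).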

How the data were processed

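Liver RNA-seq of 3 WT and 3 CREBH-KO samples was deposited as raw read counts per gene made with HTSeq by the authors, per the labels; for the aligner, the build, the HTSeq version and strandedness, the entry is "not given in the sources used here". The 5 HTSeq summary lines (27.4% to 31.2% of each library, reads with several alignments among them) were left out. All 55536 identifiers matched GENCODE M21. Genes with low counts were removed with edgeR's filterByExpr (minimum count 10), leaving 15589 genes with 99.9% of counts. Groups were compared with edgeR 4.0.16 (R 4.3.3), TMM factors and the quasi-likelihood test, Benjamini-Hochberg adjusted over all genes tested at a threshold of 0.05. CPM use effective library sizes, and CPM per kb the exonic bases. No replicate pair agreed within sampling noise. DESeq2 1.42.0, limma 3.58.1 (voom), other scalings, other filters and left-out libraries were alternatives. The fit was tested on simulated data. The genes named were Creb3l3, changed members, members with a hepatocyte membrane role, the 5 most expressed others, called partner genes, Nr1h4 and Nr0b2. Slc10a2, Abcc9, the neighbours of Slc22a27 and partner or marker genes without a call were named after their values were seen. Members and lists were chosen with earlier results of these data known. Counts, medians and sums hold 2 changed members that are not reported singly here.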

Additional observations from a re-analysis of the deposited data

How the results depend on the processing

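Against the 11 changed of 53 tested members, DESeq2 called 15 of 53 and a run with no filter on low counts 17 of 67. The share of all genes called was 10.4% in the main run, 13.6% in DESeq2 and 8.49% with no filter. Leaving out 1 library gave 5 to 14. For the uptake genes the count of 5 became 8 in DESeq2, 9 with no filter and 2 with CREBH-KO 1 alone (Slc22a7 among them), and 4 to 7 without 1 library. For canalicular export, 1 became 2 in DESeq2, 3 with no filter and 0 with CREBH-KO 1 alone (edgeR, 2 at an unadjusted p under 0.05), and 1 to 3 without 1 library. For basolateral export, 1 became 0 with CREBH-KO 1 alone (edgeR, 1 at an unadjusted p under 0.05), and 0 to 1 without 1 library. Signs turned for Slco1a4 with CREBH-KO 1 alone (0.15), for Abcb11 with library size alone (0.016) and without WT 1 (0.073), and for Abcb4 without WT 3 (-0.015), without CREBH-KO 2 (-0.077) and with CREBH-KO 1 alone (-0.17). Leaving out 1 library gave -0.23 to 0.073 for Abcb11 and -0.077 to 0.12 for Abcb4. The causes were not tested. The uptake median ranged from -0.74 to -0.50, the canalicular from -0.17 to -0.042 and the basolateral from -0.44 to -0.21. Library size alone raised the median of all genes by 0.073. No paired analysis was possible because the labels carry no replicate numbers: the numbers 1 to 3 used here only name the samples of a group in the order listed, and nothing ties equal numbers to a litter, batch or day. With 3 samples a group and 18 to 95 reads in CREBH-KO for Slc22a27 and Slc22a7, depth limits the precision of the scarce members.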
